A study of Mus musculus with 6 samples.

Results

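The 10 genes described here, Egr1, Egr2, Egr3, Ier2, Ier3, Dusp1, Nr4a1, Nr4a2, Zfp36 and Btg2, are immediate early genes that do not belong to the AP-1 family. They are a list of names that uses no threshold on measured values, drawn up with earlier results of these data known. All 10 were found by Entrez number among the 15295 genes of the deposited count table. RNA was sequenced from 6 whole tumours grown from NA13, a mouse bladder cancer line, which the submitters call xenografts, with the strain given as C57BL/6. The control group is 3 tumours with scrambled shRNA and IgG, and the other is 3 tumours with shDdr2 and IgG, so both groups received IgG. Ddr2 encodes a collagen-binding receptor tyrosine kinase. No host age or time point is labelled. Whether each tumour had its own host is also unlabelled, and p-values therefore cover only how far these samples spread, part of which may be technical.

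Immediate early genes are transcribed within minutes of a growth factor, cytokine or stress signal, without new protein synthesis, and their short-lived mRNAs mostly disappear again soon after. Signals reach them chiefly through the ERK, p38 and cAMP pathways, which act on serum response factor with its ternary complex partners, on CREB and on NF-kappaB. Egr1, Egr2 and Egr3 are zinc finger transcription factors, and Nr4a1 and Nr4a2 are orphan nuclear receptors. Dusp1 is a phosphatase that switches off MAP kinases, Zfp36 (tristetraprolin) binds AU-rich mRNAs and marks them for decay, Btg2 is an anti-proliferative partner of the CCR4-NOT deadenylase, Ier3 is a stress and survival regulator, and Ier2 is a short-lived nuclear protein.

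Promoters are shown for the 5 genes whose levels differed most between the groups, with the Nr4a genes above 0 and Ier3, Dusp1 and Zfp36 below. RefSeq entries on GRCm38.p6 were matched for 7 of the 10 genes. Each sequence is the 250 bases before the annotated transcription start, 5′ to 3′ on the gene's own strand, with capitals marking the motifs searched on both strands. These were the cAMP response element TGACGTCA (CRE), its core TGACG, the variant TGCGTCA, the AP-1 site TGANTCA, the EGR site GCGTGGGCG, the TATA sequence TATAAA and the CArG box of serum response factor. The core lies within the CRE and within TGCGTCA, and the variant was added after these windows had been read. The windows are chr15:101266596-101266845, plus strand for Nr4a1, chr2:57124004-57124253, minus strand for Nr4a2, chr17:26508473-26508722, minus strand for Dusp1, chr7:28379229-28379478, minus strand for Zfp36 and chr17:35821463-35821712, plus strand for Ier3. The starts used for Nr4a1, Dusp1, Zfp36 and Ier3 lie inside the genes as GENCODE annotates them. That used for Nr4a2 is at the gene's outer end, 57124003, while its longest coding transcript starts at 57115038.
Nr4a1: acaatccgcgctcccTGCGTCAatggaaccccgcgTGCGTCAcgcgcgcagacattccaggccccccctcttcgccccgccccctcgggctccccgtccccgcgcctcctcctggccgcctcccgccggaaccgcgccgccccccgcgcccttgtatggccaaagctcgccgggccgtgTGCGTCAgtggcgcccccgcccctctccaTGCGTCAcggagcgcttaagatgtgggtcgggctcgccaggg
Nr4a2: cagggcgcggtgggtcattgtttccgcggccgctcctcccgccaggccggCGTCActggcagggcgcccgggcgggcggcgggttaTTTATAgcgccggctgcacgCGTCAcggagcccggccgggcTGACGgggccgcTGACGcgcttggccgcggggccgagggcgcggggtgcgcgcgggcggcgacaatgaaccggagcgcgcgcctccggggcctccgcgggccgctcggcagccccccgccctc
Dusp1: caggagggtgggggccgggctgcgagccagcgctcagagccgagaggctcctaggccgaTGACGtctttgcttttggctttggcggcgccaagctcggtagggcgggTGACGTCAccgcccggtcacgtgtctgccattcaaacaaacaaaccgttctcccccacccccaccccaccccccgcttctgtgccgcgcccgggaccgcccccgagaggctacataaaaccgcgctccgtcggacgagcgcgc
Zfp36: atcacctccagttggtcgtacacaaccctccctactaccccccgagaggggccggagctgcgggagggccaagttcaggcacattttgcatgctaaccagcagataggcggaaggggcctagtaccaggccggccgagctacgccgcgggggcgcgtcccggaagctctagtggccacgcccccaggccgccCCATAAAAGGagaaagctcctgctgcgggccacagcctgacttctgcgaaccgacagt
Ier3: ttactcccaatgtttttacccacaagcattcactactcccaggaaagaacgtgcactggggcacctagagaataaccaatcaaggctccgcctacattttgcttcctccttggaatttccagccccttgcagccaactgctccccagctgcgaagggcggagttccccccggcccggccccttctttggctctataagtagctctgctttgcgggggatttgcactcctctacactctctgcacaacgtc

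The Nr4a1 window held TGCGTCA 4 times, and it was the single window with 4 or more among 32817 windows of the same length, of which 1.74% held the sequence at all. Since the variant was added after these windows had been read, that count is no measure of rarity. Counted by the core TGACG, the Nr4a1 window also held 4, at the same sites. The Nr4a2 window held the core TGACG 4 times without a full CRE, plus 1 TATAAA on the reverse strand. The core occurred 4 or more times in 0.137% of all windows and in 0.297% of the 3035 windows with a GC content of at least 70%, which both Nr4a windows have (74.4% for Nr4a1). The limit of 4 equals the count in the Nr4a windows themselves, so these shares are no measure of rarity either. The Dusp1 window held 1 full CRE and the core a further time outside it, and the Btg2 window also held 1 CRE, a sequence present in 1.55% of windows. The Zfp36 window held 1 CArG box, found in 1.47% of windows, as did 4 of the 5 Egr2 windows, which overlap each other in part. The Ier3 window held none of the motifs searched. These matches describe the letters of the windows, and no binding was measured.

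Before the members, the libraries themselves need a description. Total counts ranged from 15560571 to 19522985. The labelled cell type was checked against 18 urothelial and epithelial markers, of which 15 were tested and took 11693 to 13619 CPM in sum. CPM is the usual depth-scaled count, computed by edgeR on the TMM-scaled library total. Most of this marker sum came from the basal keratin genes Krt5 and Krt14. Krt5 stood at 4939 to 5954 CPM and Krt14 at 4083 to 5500 CPM in the 6 libraries. The sum alone is therefore no check of a bladder origin. The uroplakin gene Upk1b stood at 15.5 to 116 CPM, while Upk2 stood at 2.09 to 4.19 CPM. Upk1a, Upk3a and Upk3b are not analysed here. Ddr2 did not separate the groups, at 6.42, 16.7 and 20.5 CPM in control 1 to 3 and 4.84, 19.0 and 28.6 CPM in the libraries labelled shDdr2 1 to 3, so every direction below is between libraries as labelled. The library labelled shDdr2 1 stood apart on the first principal component (50.1% of variance) and control 1 on the second (22.2%). Ribosomal protein genes took 5.27% of counts in the library labelled shDdr2 1 against 2.00% to 3.48% in the other 5. Erythrocyte markers summed to 596 CPM in control 1 against 25.1 to 62.6 CPM elsewhere, and mitochondrial genes took 4.45% of counts there against 2.97% to 3.54%. These are whole tumours, so fewer cells of a type and less RNA per cell cannot be told apart.

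No member passed the edgeR quasi-likelihood test adjusted over all 14498 genes tested, with an adjusted p of 1.00 for each of the 10. No gene of the whole table passed either (0% called), and DESeq2 called 0 members against 0.276% of all genes. At an unadjusted p under 0.05 there was 1 member, Nr4a2, against 1.44% of all genes, and 0.993% in its direction (higher). There were 2, Nr4a2 and Ier3, when the replicate number was a block, against 1.81% of all genes. The groups did not overlap in 2 members, Nr4a2 (higher) and Zfp36 (lower), against 4.32% of all genes. Fitted values were below 0 in 6 of the 10 members, against 42.9% of genes, and the median member was at -0.24 on the log2 scale, against 0.04 for all genes tested. Between same-numbered libraries, Egr1, Ier3 and Zfp36 were lower with the shDdr2 label in 3 of 3 pairs, Egr3, Nr4a1 and Nr4a2 were higher in 3 of 3, and the other 4 members were mixed. With 3 pairs an exact paired test cannot go below p = 0.25. The share of all genes with 3 of 3 pairs in 1 direction was not computed, so these counts lack a background. Both Nr4a genes, Egr2 and Egr3 had fitted values above 0, and Egr1, Ier2, Ier3, Btg2, Dusp1 and Zfp36 below 0.

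**Figure D1:**
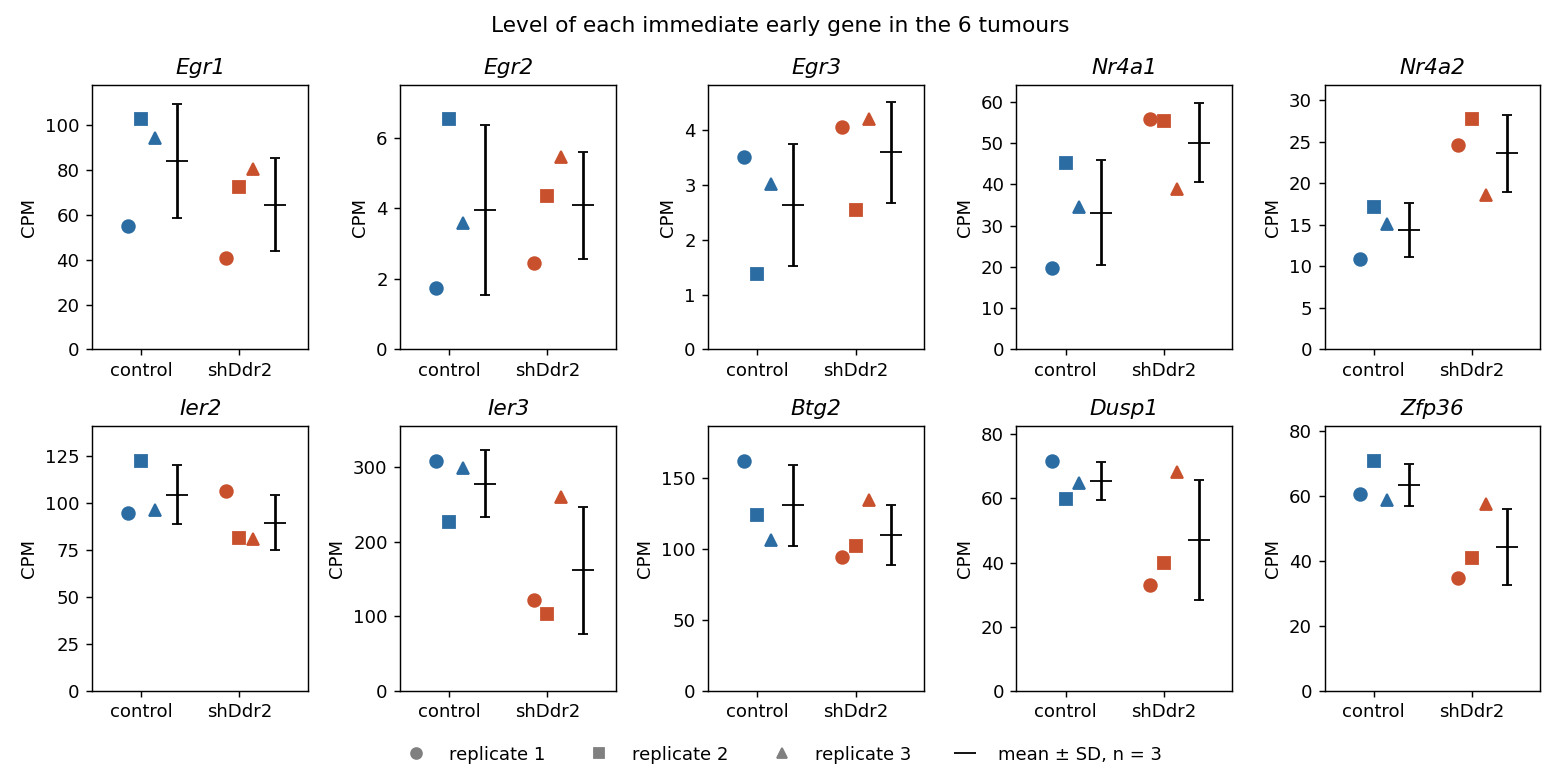
CPM of each of the 10 genes by group, with 1 point per library (marker shape gives the replicate number) and the mean ± SD of 3 libraries beside them; every y axis starts at 0 and has its own scale. Points of the 2 groups are separate in Nr4a2 and, by a small gap, in Zfp36, and in Ier3, Dusp1 and Zfp36 the replicate 3 of the libraries labelled shDdr2 sits beside the control points.

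The Nr4a receptors were the members with the largest positive differences. Nr4a2 (Entrez 18227, chromosome 2, 57106830 to 57124003, minus strand, GRCm38) stood at 10.8, 17.1 and 15.1 CPM in control 1 to 3 and at 24.6, 27.7 and 18.5 CPM in the libraries labelled shDdr2 1 to 3. All 3 of the latter were above all 3 controls, but the closest pair was 17.1 against 18.5 CPM, whose exact Poisson 95% intervals (15.2 to 19.2 and 16.6 to 20.7 CPM, covering counting error only) overlap. The means were 14.4 ± 3.22 and 23.6 ± 4.64 CPM (SD, n = 3 each), a log2 fold change of 0.72 (SE 0.27, 95% interval 0.08 to 1.35), for which the unadjusted edgeR p was 0.0324. Leaving out control 1, control 3, the library labelled shDdr2 2 or both replicates 1 put that p above 0.05. The two-sided exact permutation p, from log2 CPM, was 0.1, the smallest that 3 against 3 libraries allow.

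Nr4a1 (Entrez 15370, chromosome 15, 101254269 to 101274795, plus strand) stood at 19.7, 45.2 and 34.5 CPM in control 1 to 3 and at 55.7, 55.4 and 39.0 CPM in the libraries labelled shDdr2 1 to 3. The groups overlapped, since control 2 lay above the library labelled shDdr2 3, and control 1 was the lowest of all. Its fitted difference was 0.59 on the log2 scale (SE 0.33, 95% interval -0.18 to 1.37), and the exact permutation p was 0.2. It was 0.34 without control 1 and 0.23 with both replicates 1 left out, while Nr4a2 was at 0.56 and 0.51 in those fits. The third receptor of the family, Nr4a3, is not analysed here.

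The Nr4a genes also had the most alike patterns of any pair of members. Likeness was measured as the root mean square (RMS) difference of log2 CPM, centred per gene, over the 6 libraries, and it was 0.17 log2 units between Nr4a1 and Nr4a2. Of 12317 genes ranked by likeness to Nr4a1, Nr4a2 came first, and Nr4a1 came 6 in the ranking from Nr4a2. Outside the members, the genes most like Nr4a2 were Gamt, a creatine synthesis enzyme (RMS 0.08), the replication licensing gene Cdc6 (0.12) and Arpin, an inhibitor of the Arp2/3 complex (0.12). Those most like Nr4a1 were the DNA helicase gene Recql4, Arhgap9 and Dbt, all at 0.17 to 0.18. These are descriptions over 6 libraries that share their depth and group, and no test was made.

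Skeletal muscle markers differed between the groups in the same direction as the Nr4a genes. The 11 tested markers of 12 summed to 11.4, 75.0 and 118 CPM in control 1 to 3, and to 1003, 3363 and 446 CPM in the libraries labelled shDdr2 1 to 3. Of these, 11 had higher fitted values and 9 did not overlap between the groups, against 2.21% of genes higher without overlap. The library with the least, control 1, had the least Nr4a1 and Nr4a2, and the 3 libraries labelled shDdr2 came in the same order for Nr4a2 as for the muscle sum. The order was not shared throughout. Control 3 had the larger muscle sum but less Nr4a2 than control 2, and Nr4a1 was higher in control 2 than in the library labelled shDdr2 3. Myh2 is not analysed here, and since the deposited table holds no count of 0, it cannot show a marker at 0. The part of these markers in the Nr4a values was not tested.

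Ier3, Dusp1 and Zfp36 had fitted values below 0 and were lowest in the libraries labelled shDdr2 1 and 2, as was Btg2. Ier3 (Entrez 15937, chromosome 17, 35821684 to 35822923, plus strand) stood at 309, 227 and 298 CPM in control 1 to 3 and at 121, 103 and 259.6 CPM in the libraries labelled shDdr2 1 to 3. The first 2 of the latter were below every control, and the third lay among the controls. The means were 278 ± 44.5 and 161 ± 85.6 CPM (SD, n = 3 each), a log2 fold change of -0.78 (SE 0.37, 95% interval -1.66 to 0.09). The unadjusted edgeR p was 0.0717, and 0.2 by exact permutation. Without the library labelled shDdr2 3 the log2 fold change was -1.31, and with both replicates 1 left out it was -0.54.

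Dusp1 (Entrez 19252, chromosome 17, 26505590 to 26562128, minus strand) stood at 71.8, 59.8 and 64.7 CPM in control 1 to 3 and at 32.9, 39.9 and 68.3 CPM in the libraries labelled shDdr2 1 to 3. As with Ier3, the library labelled shDdr2 3 was at the control level and the other 2 were below all controls. Its fitted difference was -0.48 on the log2 scale (SE 0.30, 95% interval -1.17 to 0.22), and the exact permutation p was 0.3. It was -0.85 without the library labelled shDdr2 3, -0.28 without that labelled shDdr2 1 and -0.21 with both replicates 1 left out.

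Zfp36 (Entrez 22695, chromosome 7, 28376784 to 28380253, minus strand) stood at 60.6, 70.7 and 58.7 CPM in control 1 to 3 and at 34.6, 40.7 and 57.3 CPM in the libraries labelled shDdr2 1 to 3. The groups did not overlap, but the gap between control 3 and the library labelled shDdr2 3 was within counting error, with Poisson intervals of 55.0 to 62.6 and 53.8 to 61.0 CPM. The means were 63.3 ± 6.47 and 44.2 ± 11.8 CPM (SD, n = 3 each), a log2 fold change of -0.52 (SE 0.24, 95% interval -1.08 to 0.05). The unadjusted edgeR p was 0.0664, and 0.1 by exact permutation. The antisense gene Gm44710 overlaps Zfp36, and since the strand setting is not given in the sources used here, reads of this pair cannot be told apart.

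The likeness of Dusp1 and Zfp36 was second among the 45 pairs of members, with an RMS difference of 0.18. Among 12317 genes, Zfp36 came 44 in likeness to Dusp1, and Dusp1 came 43 from Zfp36. Ier3 and Dusp1 differed by 0.26, Ier3 moving over a wider range, and Ier3 and Zfp36 by 0.37. Ier3 came 325 in the ranking from Dusp1 and 3107 from Zfp36, while in the ranking from Ier3, Dusp1 came 16 and Zfp36 came 82. Btg2 differed from Zfp36 by 0.25 and from Dusp1 by 0.26. With the sign of their deviations turned, Ier3, Dusp1 and Zfp36 differed from the Nr4a genes by RMS values from 0.24 (Dusp1 and Nr4a2) to 0.42 (Zfp36 and Nr4a1). Btg2, turned likewise, differed from Nr4a2 by 0.28. The patterns were not opposite in every library, since in control 2 Nr4a1 (0.20), Dusp1 (0.15) and Zfp36 (0.44) all lay above their means. The log2 ratio of Nr4a2 to Zfp36, a pair picked after the values were seen and so given without a test, lay at -2.47 in control 1, -2.04 in control 2 and -1.95 in control 3. With the shDdr2 label it lay at -0.49 in replicate 1, -0.56 in replicate 2 and -1.62 in replicate 3. The library labelled shDdr2 3 lay nearer to the controls than to the other 2 of its label in this ratio too. For Nr4a1 over Dusp1 the groups overlapped, with control 2 at -0.40 above the library labelled shDdr2 3 at -0.81. Outside the members, Ier3 was most like Inhba, which encodes the activin beta A subunit (RMS 0.11), and Vegfa, the vascular endothelial growth factor (0.15), followed by Cyp4f17 (0.16). Dusp1 was most like Oasl1, Spred3, an inhibitor of ERK signalling, and the kinase gene Pim1 (0.06 to 0.10), and Zfp36 was most like Nrbp2, Artn and Grina (0.04 to 0.08).

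**Figure D2:**
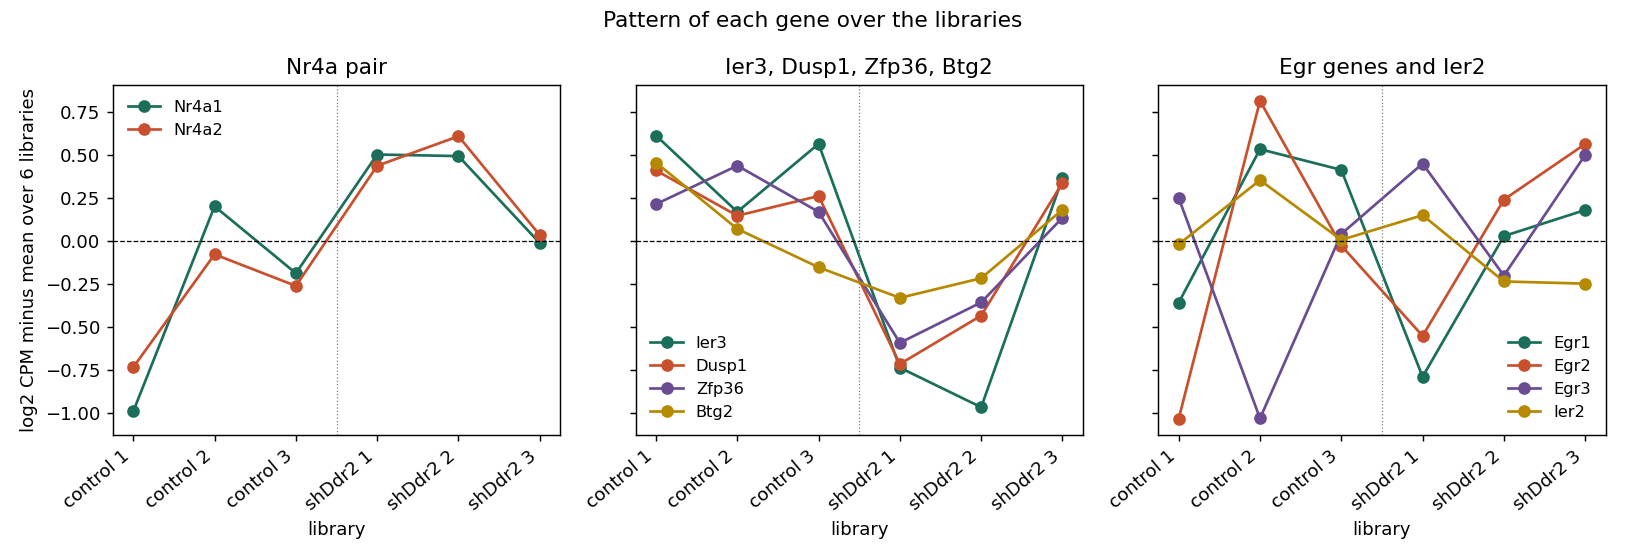
Log2 CPM minus the gene's mean over the 6 libraries (y axis) for each library (x axis), with control libraries left of the dotted line; lines only join the points of 1 gene, since replicates have no order. The Nr4a genes are above 0 in the libraries labelled shDdr2 1 and 2, where Ier3, Dusp1, Zfp36 and Btg2 are below 0, and in that labelled shDdr2 3 these 6 genes lie between -0.01 (Nr4a1) and 0.36 (Ier3).

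Markers of other cells were set beside Ier3. The 9 tested neutrophil markers of 10 summed to 223, 231 and 362 CPM in control 1 to 3 and to 162, 92.6 and 283 CPM in the libraries labelled shDdr2 1 to 3, so the libraries labelled shDdr2 2 and 1, lowest in Ier3, were also lowest in this sum. Of these markers 6 had lower fitted values and 2 were lower without overlap, against 2.11% of genes, while 3 had higher values and 1 of these, Il1r2 at 0.41 (SE 0.23), was higher without overlap. Control 1, highest in Ier3, had the lowest neutrophil sum of the controls. The library labelled shDdr2 1 also had the most keratinocyte marker RNA, 3818 CPM in sum against 745 to 1098 CPM in the other 5. Epithelial markers were set beside them too. Of the 15 epithelial markers tested 12 had lower fitted values, with a median of -0.22, and 4 were lower without overlap, against 2.11% of genes. Pparg, a regulator of urothelial differentiation, stood at 16.8, 11.0 and 10.3 CPM in control 1 to 3 and at 4.48, 1.90 and 5.05 CPM in the libraries labelled shDdr2 1 to 3, a log2 fold change of -1.74 (SE 0.44). Krt18, a keratin of simple and luminal epithelium, was at -0.66 (SE 0.32), Krt7 at -1.14 (SE 0.73) and the adhesion gene Epcam at -0.39 (SE 0.19). Krt7 overlapped between the groups, with 635 CPM in control 1 against 183 and 130 CPM in control 2 and 3. The 3 markers with higher values were Krt5 at 0.02 (SE 0.25), Trp63 at 0.08 (SE 0.22) and Upk2 at 0.15 (SE 0.41). Krt14 and Gata3 were at -0.05 (SE 0.26) and -0.08 (SE 0.22). Averaged over the 15, log2 CPM deviated from the mean of the 6 libraries by -0.94 in that labelled shDdr2 1 and by 0.63 in control 1. The part of these markers in the values of Ier3, Dusp1 and Zfp36 was not tested.

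Btg2 and Ier2 had smaller fitted differences. Btg2 (Entrez 12227, chromosome 1, 134075170 to 134079120, minus strand) stood at 162, 124 and 106 CPM in control 1 to 3 and at 94.0, 102 and 134 CPM in the libraries labelled shDdr2 1 to 3, with overlap between the groups. Its log2 fold change was -0.25 (SE 0.24, 95% interval -0.82 to 0.31), but -0.05 without control 1 and 0.025 with both replicates 1 left out. Ier2 (Entrez 15936, chromosome 8, 84661331 to 84662852, minus strand) stood at 94.5, 122 and 96.2 CPM and at 106, 81.4 and 80.7 CPM, again with overlap. Ier2 had the narrowest range of the members, 1.52-fold from lowest to highest library, and a log2 fold change of -0.22 (SE 0.21, 95% interval -0.72 to 0.27). It was -0.44 with both replicates 1 left out, -0.37 without the library labelled shDdr2 1 and -0.09 without control 2. The gene most like Ier2 was the kinase gene Pim3, with an RMS difference of 0.02, which is the closest of all nearest genes listed for the members. Btg2 was most like Six5 (0.05), Parp6 and Prmt2 (both 0.07).

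The 3 Egr genes did not vary as 1 family. Egr1 (Entrez 13653, chromosome 18, 34859823 to 34864984, plus strand) stood at 55.2, 103 and 94.4 CPM in control 1 to 3 and at 40.9, 72.2 and 80.3 CPM in the libraries labelled shDdr2 1 to 3. The replicate 1 was the lowest of its group in both groups, and the groups overlapped, although the library labelled shDdr2 was the lower of the same-numbered libraries in 3 of 3 pairs. Its fitted difference was -0.38 on the log2 scale (SE 0.34, 95% interval -1.17 to 0.41), and the exact permutation p was 0.5. Leaving out control 1 gave -0.60, leaving out the library labelled shDdr2 1 gave -0.14, and leaving out both gave -0.38.

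Egr2 (Entrez 13654, chromosome 10, 67535475 to 67542188, plus strand) stood at 1.73, 6.51 and 3.58 CPM in control 1 to 3 and at 2.46, 4.34 and 5.45 CPM in the libraries labelled shDdr2 1 to 3. The counts behind these were 32, 109 and 57, then 34, 89 and 95. Its log2 fold change was 0.06 (SE 0.55, 95% interval -1.23 to 1.34), and it was -0.29 without control 1 and 0.62 without control 2. Egr3 (Entrez 13655, chromosome 14, 70077203 to 70082614, plus strand) stood at 3.51, 1.37 and 3.02 CPM and at 4.04, 2.53 and 4.19 CPM, from 23 to 73 counts. Its log2 fold change was 0.44 (SE 0.45, 95% interval -0.62 to 1.51), but 0.13 without control 2. Control 2 was thus the library with the most Egr1 and Egr2 and the least Egr3. The Poisson intervals of control 2 and control 1 do not overlap in either low gene, at 5.35 to 7.86 against 1.18 to 2.44 CPM for Egr2 and 0.871 to 2.06 against 2.71 to 4.47 CPM for Egr3.

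The RMS difference was 0.40 between Egr1 and Egr2, 0.88 between Egr1 and Egr3, and 1.02 between Egr2 and Egr3, the third largest of the 45 pairs. The genes most like Egr1 were Mvp, the major vault protein gene, the lymphangiogenic factor gene Vegfc and the MAP kinase phosphatase gene Dusp8, all at 0.09. Those most like Egr2 were the transcription factor gene Hhex (0.13), Tmem26 and the interferon-induced gene Ifi44 (both 0.14). Egr3 had no close neighbour, with Lingo1 and Rab27a at 0.20 and Vsig10l at 0.21.

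The library order of Egr1 was in part that of stromal markers, though not of these alone. The 10 fibroblast markers, which include collagen genes, summed to 2767, 5073 and 5975 CPM in control 1 to 3 and to 1657, 4308 and 11296 CPM in the libraries labelled shDdr2 1 to 3. The lowest 2 libraries, shDdr2 1 and then control 1, were the lowest 2 for Egr1 and in the same order. The 10 endothelial markers were likewise lowest there, at 109 and 166 CPM against 259 to 466 CPM. Control 1 and the library labelled shDdr2 1 were also the lowest 2 for macrophage markers, at 608 and 689 CPM against 832 to 1106 CPM. For T and NK cell markers they stood at 5.72 and 10.3 CPM against 11.3 to 45.6 CPM. Low sums in these 2 libraries were thus not particular to stromal markers. At the upper end the order was not shared. From control 2 to control 3 to the library labelled shDdr2 3 the fibroblast sum rose, while Egr1 fell from 103 to 94.4 and 80.3 CPM. Of the fibroblast markers 8 had higher fitted values and none was free of overlap, and their part in the Egr1 values was not tested.

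**Figure D3:**
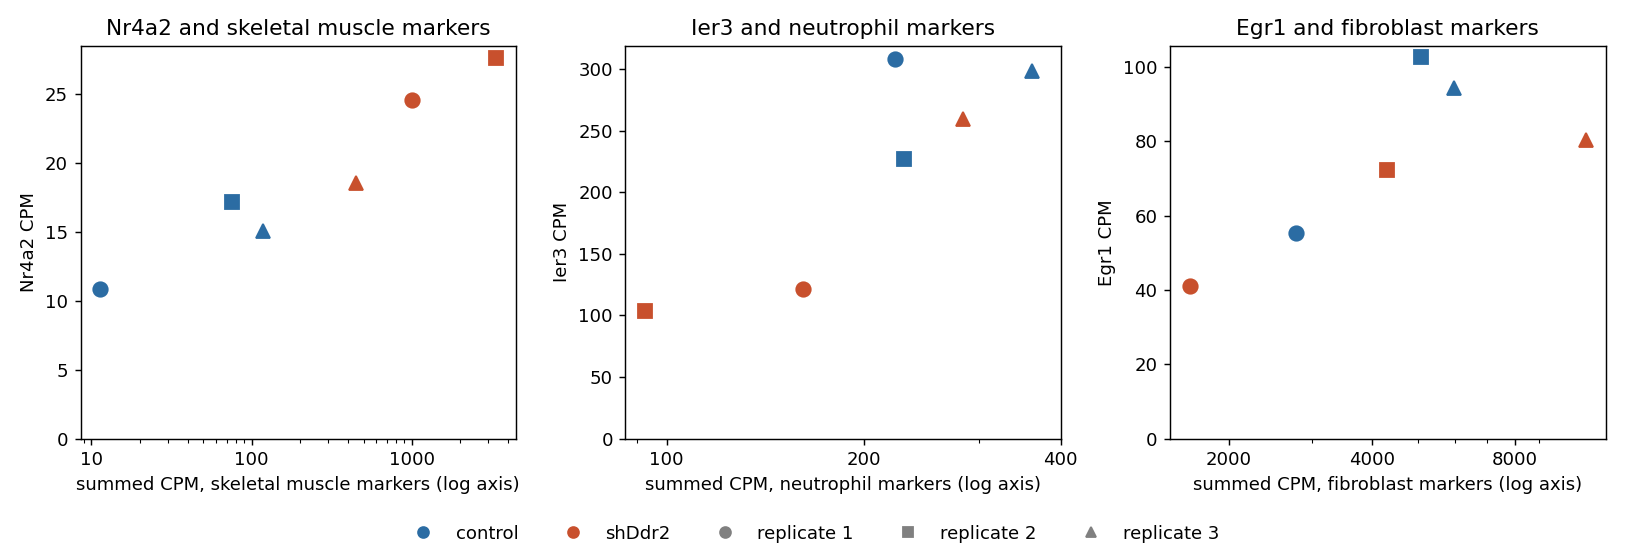
CPM of Nr4a2, Ier3 and Egr1 (y axes, from 0) against the summed CPM of skeletal muscle, neutrophil and fibroblast markers (x axes, log scale), with 1 point per library, colour for the group and shape for the replicate number. The pairings were picked after the values were seen; Nr4a2 was lowest at a muscle sum of 11.4 CPM and highest at 3363 CPM, Ier3 was lowest in the 2 libraries with the lowest neutrophil sums, and Egr1 in the 2 with the lowest fibroblast sums.

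Levels were compared between genes per kilobase, as CPM divided by the length of the longest coding transcript in GENCODE M21. Ier3 was the highest, at 246 ± 39.4 CPM per kilobase in the controls against 143 ± 75.7 under the shDdr2 label (SD, n = 3 each), and its lowest library was above the highest library of any other member. Ier2 (68.6 ± 10.3 in control tumours), Btg2 (47.7 ± 10.4), Dusp1 (32.9 ± 3.03), Zfp36 (22.7 ± 2.32), Egr1 (18.7 ± 5.64) and Nr4a1 (13.0 ± 5.01) followed, and each of these overlapped its next lower neighbour over the 6 libraries. This is the order of the control means and of the means over all 6 libraries. Under the shDdr2 label, Nr4a1 (19.6 ± 3.75) stood above Zfp36 (15.9 ± 4.22) and Egr1 (14.4 ± 4.63). Nr4a2 came next at 4.02 ± 0.901 CPM per kilobase, and Egr2 (1.33 ± 0.814) and Egr3 (0.668 ± 0.283) were the lowest. Nr4a2 did not overlap with Egr2, while Egr2 and Egr3 overlapped. With the union of coding-transcript exons as the length, Egr1 and Zfp36 changed places and the rest of the order was the same. In CPM, not per length, the 10 members summed to 789, 777 and 775 CPM in control 1 to 3 and to 517, 529 and 747 CPM in the libraries labelled shDdr2 1 to 3.

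The spread within groups differed between members. The pooled within-group SD of log2 CPM was 0.22 for Ier2, at percentile 19.6 of all genes tested, and 0.77 for Egr2, at percentile 86.4. The other members lay between these, with Zfp36 at 0.28, Nr4a2 at 0.32, Dusp1 at 0.40 and Ier3 at 0.53. The edgeR biological coefficient of variation was 23.0% for Ier2, 27.8% for Nr4a2, 34.3% for Ier3 and 48.2% for Egr2.

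**Figure D4:**
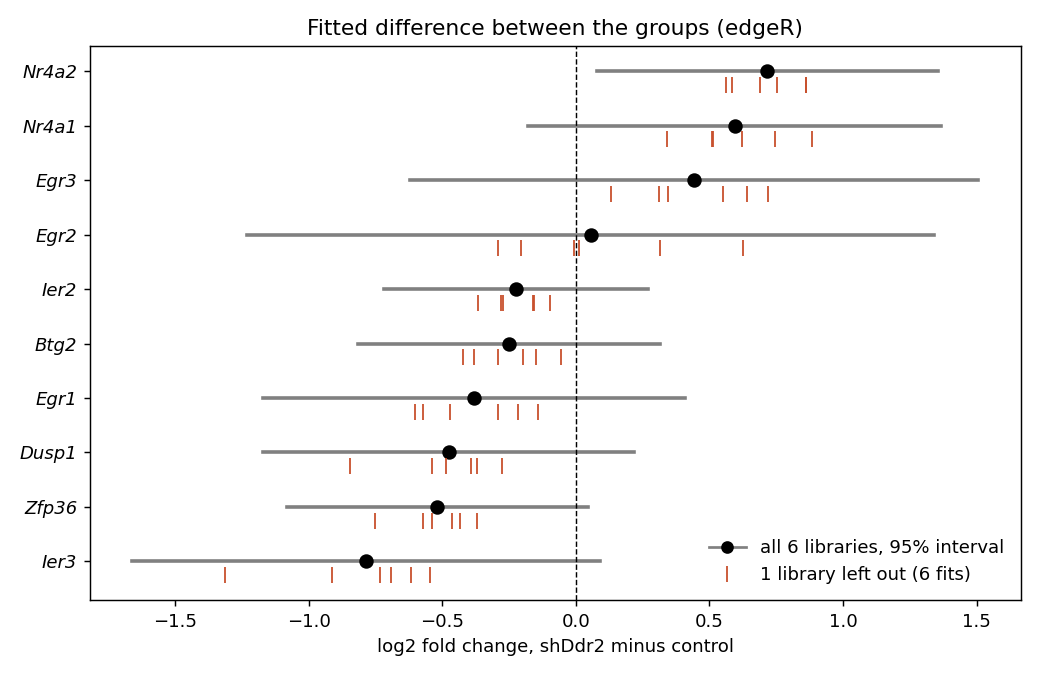
Fitted log2 fold change of each member, libraries labelled shDdr2 minus control (x axis), as a black point with its 95% interval from all 6 libraries, and as orange ticks from the 6 fits that each leave out 1 library. The interval of Nr4a2 (0.08 to 1.35) does not include 0 before adjustment, the other 9 do, and the ticks of Egr2 lie on both sides of 0.

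The other genes of the pathway were taken from lists drawn up by function, with earlier results of these data known. Of 10 AP-1 and ATF factor genes, 0 passed the adjusted edgeR test in either direction, 9 had lower fitted values, and the median was -0.35 against 0.04 for all genes tested. Junb, an AP-1 subunit, stood at 382, 484 and 436 CPM in control 1 to 3 and at 300.5, 253 and 324 CPM in the libraries labelled shDdr2 1 to 3, a log2 fold change of -0.57 (SE 0.21) with an unadjusted edgeR p of 0.0298. Maff, a small Maf protein, and Fosl1 were also lower without overlap, at -0.41 (SE 0.22) and -0.56 (SE 0.33). Fos and Jun, the partners of the classical AP-1 dimer, were at -0.37 (SE 0.25) and -0.29 (SE 0.25) on the same scale, with overlap between the groups, and the stress-induced Atf3 was at 0.13 (SE 0.47).

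Of 36 tested genes among 38 other immediate early and early response genes, 0 passed in either direction, 26 had lower fitted values and the median was -0.21. At an unadjusted p under 0.05 there were 3, all lower, against 0.448% of all genes. Hbegf, a ligand of the EGF receptor, stood at 107, 84.5 and 100.3 CPM in control 1 to 3 and at 59.5, 46.2 and 66.5 CPM in the libraries labelled shDdr2 1 to 3, a log2 fold change of -0.76 (SE 0.22). The groups did not overlap, and here the library labelled shDdr2 3 was also below all controls. Nfkbia, the inhibitor of NF-kappaB that is itself an NF-kappaB target, was at -0.55 (SE 0.20) and Phlda1 at -0.50 (SE 0.21). Of 16 ERK pathway output genes 0 passed, 12 had lower values and the median was -0.17, with Epha2, an ephrin receptor, at -0.52 (SE 0.27) and Spred3 at -0.54 (SE 0.30).

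Closer relatives and partners of the members showed smaller differences. Of 19 such genes 0 passed in either direction, 12 had lower values and the median was -0.06. The Zfp36 relatives Zfp36l1 and Zfp36l2 were at -0.19 (SE 0.20) and -0.11 (SE 0.25), and Btg1, the relative of Btg2, at -0.23 (SE 0.23). Of the MAP kinase phosphatases, Dusp6 was at -0.16 (SE 0.34), Dusp4 at -0.33 (SE 0.42), Dusp5 at -0.22 (SE 0.29) and Dusp2 at 0.09 (SE 0.40). Nab1 and Nab2, corepressors of EGR factors, were at -0.0038 (SE 0.21) and -0.15 (SE 0.20). Tob1, an anti-proliferative relative of Btg2, was at 0.28 (SE 0.18), with higher values in all 3 libraries labelled shDdr2 than in the controls. Upstream factors centred on 0. The median was 0.01 over 8 tested genes of serum response factor and its partners and 0.04 over 9 genes of the CREB family, with 0 genes past the adjusted test in both.

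Zfp36 shortens the life of AU-rich mRNAs, so transcripts known as its targets were listed. Of 14 tested transcripts among 16, 0 passed the adjusted edgeR test, 14 had lower fitted values and the median was -0.72. Chemokines of this list were already known to be lower here, so it is no independent evidence of direction. It includes Zfp36 and Ier3 themselves, and without them 12 of 12 were lower with a median of -0.77. Cxcl2 and Cxcl3, neutrophil-attracting chemokines, were at -1.94 (SE 0.43) and -1.52 (SE 0.48), Csf3, the granulocyte growth factor, at -2.32 (SE 0.67) and Cxcl1 at -1.18 (SE 0.43). The Csf3 value rested on low counts. By replicate number, the controls held 44, 19 and 55 counts of Csf3, against 3, 6 and 15 with the shDdr2 label. DESeq2 called 1 of the 14. Cxcl2, Cxcl3 and Cxcl1 were far higher in control 1 (107, 272 and 89.7 CPM) than in the other 2 controls. Control 2 and 3 held 41.0 and 44.9 CPM of Cxcl2, 81.2 and 118 CPM of Cxcl3, and 35.1 and 51.1 CPM of Cxcl1. The 14 transcripts summed to 2190, 1445 and 1675 CPM in control 1 to 3 and to 1090.2, 887 and 1444 CPM in the libraries labelled shDdr2 1 to 3. The library labelled shDdr2 3 was again the nearest to the controls, and the part of Zfp36 in these levels was not tested.

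Heat shock genes, which respond to stress by another route, were set beside these as a separate list. Of 9 tested, 0 passed, 4 had lower values, and the median was 0.10.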

How the data were processed

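RNA of 6 whole tumours was measured by poly(A) RNA sequencing with paired reads of 150 bp, per the labels' protocols. Whole-number counts for each Entrez gene were deposited, possibly estimates rounded by the authors: RSEM 1.2.31, Bowtie2 2.1.0, limma and the build GRCm38.p5 are named, without roles, in the submitters' processing notes. The lowest count in the table is 1, so genes at 0 in a library are not analysed here. The authors also deposited log2 values, which gave back the counts for 91753 of 91770 values (tolerance 0.05) once the log2, an added 1 and a scaling of each library were undone; they served in 1 alternative. No source used here states the gene filter, the strand setting or how reads shared by related genes were treated.

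Symbols came from RefSeq by Entrez number (14876 of 15295 matched), coordinates and lengths from GENCODE M21 on GRCm38, and promoters from RefSeq on GRCm38.p6. Counts were filtered with filterByExpr (14498 genes left), scaled by TMM and tested in R 4.3.3 by edgeR 4.0.16 (glmQLFit, robust, and glmQLFTest). Two-sided p-values were adjusted over all genes tested (Benjamini-Hochberg, threshold 0.05). Log2 CPM used a prior count of 2. Exact permutation tests ran over the 20 assignments of 3 and 3 libraries. Alternatives used DESeq2 1.42.0, limma 3.58.1, other scalings, filters and left-out libraries. The fit was tested on simulated data.

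The members and lists were chosen with earlier results of these data known. Genes named are the members, their relatives and partners, Fos, Jun and Atf3 of the AP-1 and ATF list, and up to 4 per list by unadjusted p. Also named are the 3 genes most alike each member (average log2 CPM of at least 1, predicted genes left out) and Ddr2. The epithelial genes Krt5, Krt14, Upk1b, Upk2, Trp63 and Gata3 were added later. Replicate numbers come from the titles, and deviations from the group means correlated between same-numbered libraries with r of 0.299, 0.267 and 0.253 across genes, all above the 0.1 set for treating them as pairs, though the labels do not say what a number stands for. The fits and permutation tests given for each member nevertheless ignore the replicate number, and the fit with it as a block is an alternative. Every pair of libraries within a group differed by more than counting noise (chi-square/df of 24.8 to 229). For the median gene, the 95% interval extended 0.76 log2 units each way.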

Additional observations from a re-analysis of the deposited data

How the results depend on the processing

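In all 17 alternatives run, 0 members passed an adjusted p of 0.05, and 6 or 7 members had fitted values below 0. Egr1, Egr3, Ier2, Ier3, Dusp1, Nr4a1, Nr4a2 and Zfp36 kept their sign in all 17. The Egr2 log2 fold change turned in sign in 4 (-0.29 without control 1, -0.0084 without control 3, -0.21 without the library labelled shDdr2 3 and -0.056 with both replicates 1 left out). The Btg2 log2 fold change turned in sign in 1, to 0.025 with both replicates 1 left out, an alternative chosen after seeing the data. Fits without 1 library gave log2 fold changes of -0.60 to -0.14 for Egr1, -0.29 to 0.62 for Egr2, 0.13 to 0.72 for Egr3, -0.37 to -0.09 for Ier2, -1.31 to -0.55 for Ier3, -0.85 to -0.28 for Dusp1, 0.34 to 0.88 for Nr4a1, 0.56 to 0.86 for Nr4a2, -0.75 to -0.37 for Zfp36 and -0.42 to -0.05 for Btg2. Members with an unadjusted p under 0.05 numbered 1 (Nr4a2), but 2 on voom weights, 3 on the deposited log2 values, 2 with both replicates 1 left out and 0 to 4 without 1 library (0 without control 1, control 3 or that labelled shDdr2 2, and 4 without that labelled shDdr2 3). With the replicate block they numbered 2, as Ier3 joined at -0.90 (unadjusted edgeR p of 0.018), and the block changed no adjusted call. Over all genes, DESeq2 called 40, among them 1 of the Zfp36 targets, 1 epithelial marker and 5 skeletal muscle markers, where edgeR called 0. The genes with unadjusted p under 0.05 by edgeR numbered 209, but 127 when 50 counts in 3 libraries were required, 1033 with both replicates 1 left out and 170 to 1022 without 1 library (1022 without the library labelled shDdr2 1, 395 without that labelled shDdr2 3). The cause of these shifts was not tested. By the largest absolute difference in place of the RMS, 1 of the 3 nearest genes of Nr4a1 was the same, and 2 or 3 for the other members. Depth limits Egr2 and Egr3 most, with 23 to 109 counts per library.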
